A study of Homo sapiens with 6 samples.

Results

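The genes of the actin cytoskeleton and the contractile machinery were followed in HGC-27 cells with and without knockdown of ACAT2. The members were 44 genes found by their symbol in the deposited table of 58735 genes. They comprised 4 actins, 7 genes of myosin II, 4 tropomyosins, 7 genes of the calponin family with caldesmon, 6 crosslinkers, 8 adhesion and LIM proteins, 7 regulators of filament dynamics and the transcription factor SRF. HGC-27 is an established human gastric carcinoma line, labelled as wild type with the tissue stomach in both groups. The shACAT2 group carried pSIH-H1-Puro-shACAT2, a vector for a short hairpin RNA against ACAT2, and the shNC group carried the control vector pSIH-H1-Puro-shNC. Exposure to the vectors lasted 24 h and was followed by puromycin selection for 7 days in both groups, so the control cells shared the vector backbone and the selection. Which of the hairpins used in the study was sequenced is not given in the labels. Total RNA was sequenced as 3 libraries per group, named by group and replicate number.

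Actin monomers assemble into filaments, and human cells draw on a small family of nearly identical actin proteins. ACTB and ACTG1 encode the cytoplasmic actins of nearly every cell, whereas ACTA2 and ACTG2 encode the smooth muscle actins, of which ACTA2 is also the classical mark of contractile fibroblasts. Myosin II pulls on filaments after phosphorylation of its regulatory light chain, tropomyosins lie along the filament and calponins and transgelins bind its side. Many of these genes are textbook targets of SRF, a transcription factor that binds the CArG box and works with the MRTF cofactors, which are themselves held back by free actin monomers. In gastric carcinoma cells the actin cytoskeleton drives protrusion, adhesion and invasion.

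The fragments on genes ranged from 14086416 to 16067486 per library. ACAT2 itself measured 12.9 ± 1.25 FPKM (fragments per kilobase of summed exons, scaled by the authors for library depth, mean ± SD, n = 3) in shNC and 5.90 ± 0.388 FPKM in shACAT2 cells. Its log2 fold change was −1.01 (standard error, SE, 0.10, limma adjusted p = 0.00594). In shACAT2-3, 36466 genes had a fragment, against 25337 to 27196 genes in the other 5 libraries. The closest replicates were shNC-2 and shNC-3, with a chi-square per gene of 1.73, where every other pair of replicates had 12.1 to 46.0.

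The labels call the cells gastric cancer cells, and the defining markers of epithelium and gastric mucosa were nearly absent. None of the 6 epithelial markers reached a mean of 1 FPKM in either group, and KRT18, KRT19 and EPCAM stayed at or below 0.212 FPKM in every library. The epithelial markers summed to between 0.505 and 0.830 FPKM in shNC and between 1.47 and 2.28 FPKM in shACAT2 libraries. Of that sum the cadherin CDH1 took 0.120 to 0.222 FPKM in shNC and 0.608 to 1.15 FPKM in shACAT2 cells. None of the 6 gastric mucosa markers reached 1 FPKM, and TFF1 and GKN1 had no fragment.

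Markers of differentiated smooth muscle, a lineage that also makes the smooth-muscle-type isoforms described here, were low as well. None of the 7 smooth muscle markers reached a mean of 1 FPKM, with summed levels of 1.50 to 1.73 FPKM in shNC and 1.41 to 1.84 FPKM in shACAT2 libraries. MYH11, the smooth muscle myosin heavy chain, lay between 0.205 and 0.360 FPKM in the 6 libraries. The markers in this sum went different ways at this low level. SYNPO2 went from 0.886 ± 0.191 to 0.444 ± 0.128 FPKM (SD, n = 3), with all shACAT2 values below all shNC values. LMOD1 went from 0.337 ± 0.0926 to 0.518 ± 0.0346 FPKM, with all shACAT2 values above all shNC values. The other smooth muscle markers had overlapping groups, and none of the 7 was tested. None of the 6 striated muscle markers and not the leukocyte marker PTPRC reached 1 FPKM. Of the 7 fibroblast markers 6 reached 1 FPKM. The sum of all 7 lay between 306 and 341 FPKM in shNC and between 444 and 537 FPKM in shACAT2 libraries. COL3A1, COL1A1 and LUM were abundant, with means of 213, 61.0 and 31.4 FPKM in shNC cells. COL1A2 and PDGFRB had only 2.66 and 0.686 FPKM there. Among the 7 markers, COL1A1, DCN and LUM rose in shACAT2 cells, with log2 fold changes of 0.97, 0.54 and 0.64. The other 3 tested markers did not pass, and of these PDGFRA went the other way, from 2.46 ± 0.183 to 1.56 ± 0.185 FPKM (SD, n = 3), with all shACAT2 values below all shNC values and a log2 fold change of −0.43 (limma adjusted p = 0.0701). The summed level of fibroblast markers, most of it collagen, moved with the members, and its part in the results was not tested. In bulk RNA, a change in the share of cells that carry a transcript and a change of its amount per cell cannot be told apart.

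The beginnings of the 4 member actin coding sequences are shown because the comparison of isoforms depends on reads that can tell them apart. They are the first 30 coding bases of the GENCODE 29 reference transcripts, from the start codon, and capitals mark bases that differ from ACTB at the same position counted from the start codon.
ACTB: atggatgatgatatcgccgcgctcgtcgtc
ACTG1: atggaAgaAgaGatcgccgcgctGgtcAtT
ACTA2: atgTGtgaAgaAGAGgAcAGCACTgCcTtG
ACTG2: atgTGtgaAgaGGAGAccAcCGCGCtcgtG
ACTG1 differed from ACTB at 6 of these bases, ACTG2 at 15 and ACTA2 at 17. Positions were compared without gaps. The coding sequences have 1128 bases in ACTB and ACTG1, 1131 in ACTG2 and 1134 in ACTA2, so shifted bases can add to the last 2 counts. Over the whole coding sequence ACTB was 91.2% identical to ACTG1 and 81.7% to ACTA2. No stretch of 50 bases was shared between transcripts of ACTA2 and ACTB, and 10 were shared between ACTB and ACTG1.

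Of the 44 members, 40 reached a mean of 1 FPKM in at least 1 group and were tested. In shACAT2 cells 11 of them rose and none fell at a limma adjusted p below 0.05. Among all 13832 genes tested, 3.3% rose and 1.81% fell, against 27.5% of the tested members that rose. The 11 genes were ACTA2, TAGLN, MYL9, TPM1, CAPG, MYL12B, DSTN, MYL12A, FHL1, VCL and TPM4. FHL1 passed the filter on low values only through the shACAT2 group, where it was high, while the other 39 members reached 1 FPKM in both groups. The 4 members below the filter were ACTG2, MYLK, CNN1 and TAGLN3.

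The median log2 fold change of the tested members was 0.36, beside 0.02 for all genes tested. A positive log2 fold change was found for 36 members and a negative one for 4, against 52.3% of all genes with a positive value. All 3 shACAT2 values lay above all 3 shNC values for 19 members and below them for 3, and the groups overlapped for 18. Among all genes tested 16.2% were entirely above and 14.5% entirely below. By the study's thresholds, an absolute log2 fold change above 1 with an unadjusted p below 0.05, 4 members qualified (ACTA2, TAGLN, MYL9 and TPM1), all higher. Of all genes 0.983% were past these limits in that direction and 1.5% in either. The limits were applied here to limma fold changes of log2(FPKM + 1), not to the study's own fold changes. CAPG had 0.98 on this scale and 1.13 with 0.1 in place of 1 added to the FPKM.

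**Figure D1:**
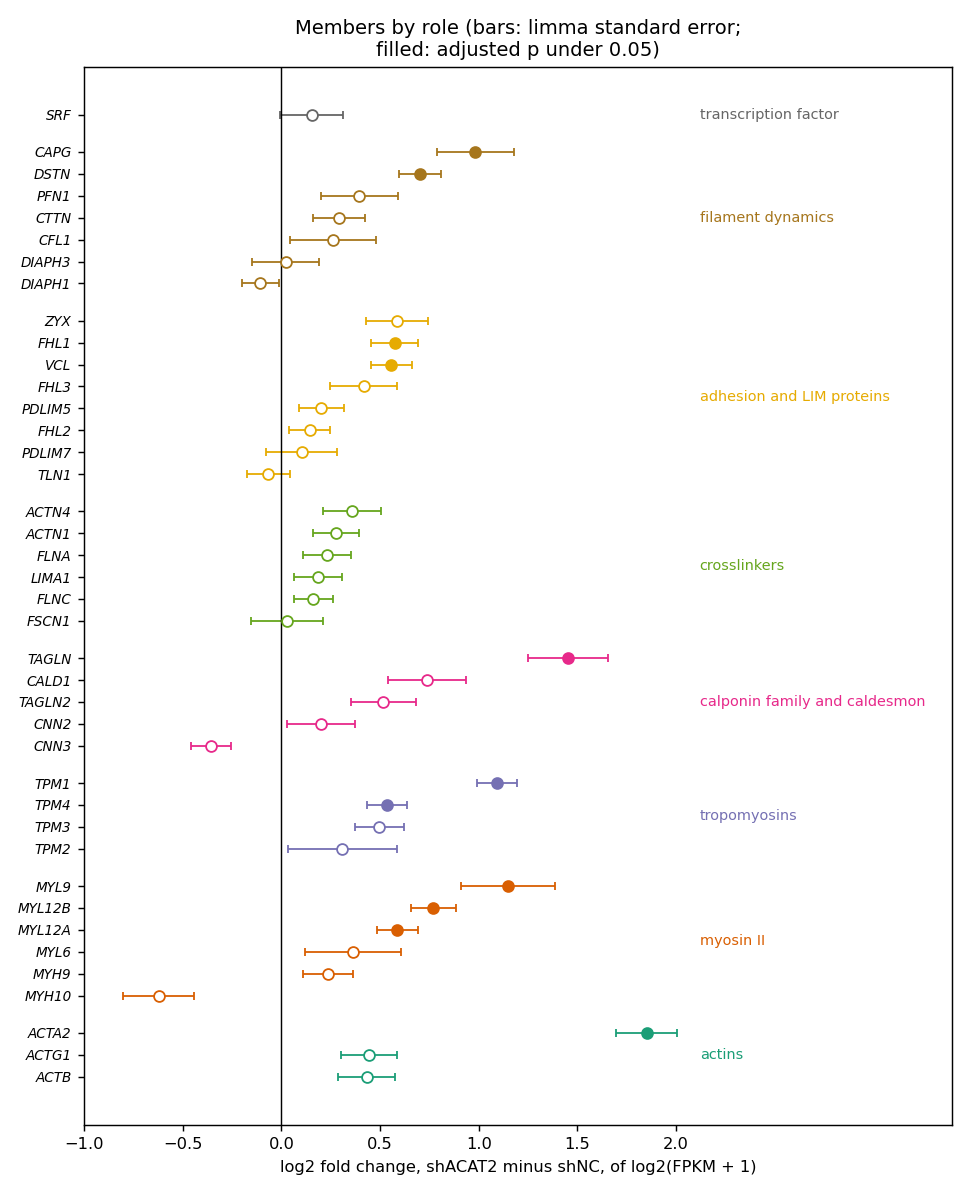
Log2 fold change (shACAT2 minus shNC, on the log2(FPKM + 1) scale, horizontal axis) of the 40 tested members, grouped by role, with bars for the limma standard error and filled symbols for adjusted p below 0.05. The filled symbols run from 0.54 for TPM4 to 1.85 for ACTA2, no filled symbol is negative, and MYH10 at −0.62 is the lowest.

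With the replicate number as a block, 18 members rose and 2 fell, MYH10 and CNN3, at a limma adjusted p below 0.05, where 7.67% of all genes rose and 4.81% fell. All 11 genes named above were among the 18. That libraries of equal number belong together is not shown by the data, so the further calls rest on an assumed pairing. The calls also depended on single libraries. After removal of any shNC library or of shACAT2-2, only ACTA2 and TPM1 kept a limma adjusted p below 0.05, where 0.718% (without shNC-1), 0.548% (without shNC-2), 0.353% (without shNC-3) and 0.681% (without shACAT2-2) of all genes rose. The same 2 genes were left with shNC-2 and shNC-3 averaged to 1 sample, where 0.455% of all genes rose.

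ACTA2, the smooth muscle α-actin, had the largest log2 fold change of the tested members. The gene (ENSG00000107796) occupies bases 88935074 to 88991339 of chromosome 10 in GRCh38, on the minus strand. The shNC libraries 1 to 3 had 4.44, 3.73 and 3.16 FPKM of ACTA2 and the shACAT2 libraries 1 to 3 had 19.7, 14.3 and 14.9 FPKM, with 162 to 890 fragments behind each value. Every shACAT2 library was far above every shNC library, and shACAT2-1 was the highest. The mean rose 4.32-fold, from 3.77 ± 0.640 to 16.3 ± 2.96 FPKM (SD, n = 3), with a log2 fold change of 1.85 (SE 0.16, limma adjusted p = 0.00347). ACTA2 stayed past the threshold in every alternative tried, with log2 fold changes from 1.72 to 2.08. Its exons share 516 bases with ACTA2-AS1 and 380 bases with FAS on the opposite strand, and the strand setting of the counting is not given in the sources used here. Of the stretches of 50 bases in ACTA2 transcripts, 26.0% occur in other genes as well, most often in ACTA2-AS1. FAS had a mean of 5.21 FPKM in shNC cells and 4.16 FPKM in shACAT2 cells, the opposite direction. For the protein, the paper reports the reverse of the rise in ACTA2 RNA. Its blots after the knockdown, with the sequenced line among those used, are described as showing less SMA, the short name of smooth muscle α-actin. Why the RNA and the protein went different ways was not tested.

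The cytoplasmic actins were far more abundant and changed less. ACTB, which codes for β-actin, measured 1096, 912 and 917 FPKM in the shNC and 1541, 1198 and 1222 FPKM in the shACAT2 libraries. The groups did not overlap, and in both of them the library numbered 1 was clearly the highest. The log2 fold change of ACTB was 0.43 (SE 0.15, limma adjusted p = 0.136), and with the replicate block its limma adjusted p was 0.0368. ACTG1, which codes for γ-actin, measured 398, 327 and 328 FPKM in shNC and 550, 433 and 452 FPKM in shACAT2 libraries. Here too the groups did not overlap and replicate 1 led each group. Its log2 fold change was 0.44 (SE 0.14, limma adjusted p = 0.126, and 0.0322 with the replicate block). ACTG2, the smooth muscle γ-actin, was near zero in both groups, at 0.120, 0.0971 and 0.0609 FPKM in shNC and 0.138, 0.0316 and 0.192 FPKM in shACAT2 libraries, from 2 to 11 fragments.

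As a share of the summed FPKM of these 4 actins, ACTA2 made up 0.283% ± 0.0261 in shNC and 0.895% ± 0.0344 in shACAT2 cells (SD, n = 3). The shares in single libraries were 0.296%, 0.300% and 0.253% in shNC and 0.933%, 0.868% and 0.883% in shACAT2 cells. The groups were far apart on this scale, and replicate 1 was the highest in shACAT2 cells only. ACTB made up 73.3% ± 0.177 and 72.7% ± 0.350, and ACTG1 26.4% ± 0.163 and 26.4% ± 0.367, of the actin FPKM in shNC and shACAT2 cells. The cytoplasmic isoforms held nearly all of the actin signal in both groups. The summed actin level was 1330 ± 146 FPKM in shNC cells and 1815 ± 257 FPKM in shACAT2 cells. Fragments of the 4 actin genes were 0.474% ± 0.0375 of all fragments on genes in shNC and 0.621% ± 0.0548 in shACAT2 cells.

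β-actin was also the study's reference transcript for quantitative PCR, so the primers listed for it were placed on the reference transcripts.
β-actin forward: ATAGCACAGCCTGGATAGCAACGTAC
β-actin reverse: CACCTTCTACAATGAGCTGCGTGTG
The primer listed as forward matched ACTB in antisense and the primer listed as reverse matched it in sense, together spanning 158 bases. ACTB was the sole gene in GENCODE 29 with an exact match to both. The reverse primer also matched POTEG, POTEKP and AP000529.1, whose mean levels were at most 0.0248 FPKM in either group. ACTB, the gene matched by both primers, had 975 ± 105 FPKM in shNC cells and 1320 ± 191 FPKM in shACAT2 cells (SD, n = 3), a ratio of 1.35.

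**Figure D2:**
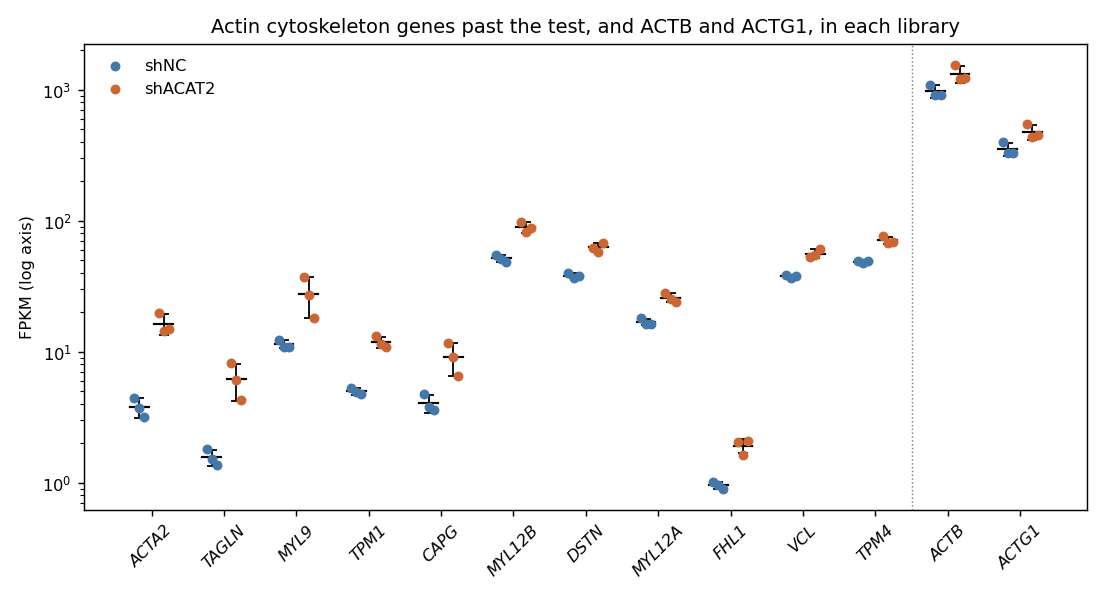
FPKM (log axis) in each library for the 11 members past the test and, right of the dotted line, for ACTB and ACTG1. Points are libraries in the order of replicate number, horizontal bars are group means and error bars are SD (n = 3), and in each of the 13 genes the shACAT2 points lie above the shNC points.

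Among the genes of myosin II, 3 of 6 tested rose, and all 3 were regulatory light chains. MYL9, the light chain typical of smooth muscle, measured 12.3, 10.9 and 11.0 FPKM in shNC and 37.1, 27.3 and 18.1 FPKM in shACAT2 libraries. The shNC values were tight, whereas shACAT2-1 was well above shACAT2-3. The mean rose 2.41-fold with a log2 fold change of 1.15 (SE 0.24, limma adjusted p = 0.0424). MYL12B, a light chain of nonmuscle cells, measured 55.0, 51.4 and 48.6 FPKM in shNC and 97.7, 81.4 and 87.5 FPKM in shACAT2 libraries. It was the most abundant light chain of the list, with groups well apart and a log2 fold change of 0.77 (SE 0.11, limma adjusted p = 0.0167). MYL12A, its near-identical neighbour, measured 18.1, 16.3 and 16.4 FPKM in shNC and 28.2, 25.5 and 24.1 FPKM in shACAT2 libraries, with a log2 fold change of 0.59 (SE 0.10, limma adjusted p = 0.0281). The 2 transcripts share 76 stretches of 50 bases, so the division of reads between them is uncertain.

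The remaining myosin II genes did not pass the test. MYH9, the main nonmuscle heavy chain, had a log2 fold change of 0.23 with overlapping groups, and the essential light chain MYL6 one of 0.36, with a limma adjusted p of 0.316 and 0.417. MYH10, the second nonmuscle heavy chain, went the other way, at 34.2, 42.3 and 40.9 FPKM in shNC and 19.5, 31.2 and 25.5 FPKM in shACAT2 libraries. All its shACAT2 values were below all its shNC values, with a log2 fold change of −0.62 (SE 0.18, limma adjusted p = 0.102, and 0.0293 with the replicate block). The kinase gene MYLK, whose product phosphorylates the regulatory light chain, stayed below the filter at 0.433 to 0.467 FPKM in shNC and 0.472 to 0.613 FPKM in shACAT2 libraries.

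Of the 4 tropomyosins, TPM1 and TPM4 rose. TPM1, the α-tropomyosin with muscle and nonmuscle isoforms (chromosome 15, 63042632 to 63071915, GRCh38), measured 5.31, 4.89 and 4.73 FPKM in shNC and 13.1, 11.4 and 10.9 FPKM in shACAT2 libraries. Replicates were close together in both groups and the groups were far apart. The mean rose 2.37-fold, from 4.97 ± 0.304 to 11.8 ± 1.16 FPKM (SD, n = 3), with a log2 fold change of 1.09 (SE 0.10, limma adjusted p = 0.00479). Like ACTA2, TPM1 stayed past the threshold in every alternative tried, with log2 fold changes from 1.02 to 1.22. TPM4, a tropomyosin of nonmuscle cells, measured 49.2, 47.4 and 49.2 FPKM in shNC and 76.4, 67.8 and 68.8 FPKM in shACAT2 libraries, with a log2 fold change of 0.54 (SE 0.10, limma adjusted p = 0.0329). Isoforms of a gene could not be separated in the gene-level table.

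TPM3 and TPM2 did not pass. TPM3, whose cytoplasmic isoforms are widespread, measured 65.4, 56.1 and 56.0 FPKM in shNC and 91.6, 74.9 and 85.1 FPKM in shACAT2 libraries. Its groups did not overlap, and its log2 fold change was 0.50 (SE 0.12, limma adjusted p = 0.0703, and 0.0291 with the replicate block). TPM2, the β-tropomyosin of muscle, measured 17.8, 14.3 and 14.2 FPKM in shNC and 27.0, 21.9 and 12.0 FPKM in shACAT2 libraries. In this gene shACAT2-3 was below every shNC library while the other shACAT2 libraries were above them, and the log2 fold change was 0.31 (SE 0.28, limma adjusted p = 0.553). The value rested on single shACAT2 libraries, as it was 0.63 without shACAT2-3 (limma adjusted p = 0.0662) and 0.07 without shACAT2-1 (limma adjusted p = 0.872).

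In the calponin family with caldesmon, TAGLN rose and the other 4 tested genes did not pass. TAGLN, which codes for transgelin or SM22α, an early smooth muscle protein (chromosome 11, 117199321 to 117204782, GRCh38), measured 1.80, 1.51 and 1.36 FPKM in shNC and 8.17, 6.07 and 4.25 FPKM in shACAT2 libraries, from 92 to 486 fragments. All shACAT2 values were above all shNC values, although the shACAT2 values themselves spread widely. The mean rose 3.96-fold with a log2 fold change of 1.45 (SE 0.20, limma adjusted p = 0.0137). TAGLN shares 446 exon bases with PCSK7 on the opposite strand, and PCSK7 had 1.96 FPKM in shNC cells and 1.90 FPKM in shACAT2 cells. TAGLN2, the widely expressed transgelin, was far more abundant at 103, 91.2 and 86.4 FPKM in shNC and 165, 129 and 113 FPKM in shACAT2 libraries. Its groups did not overlap, and its log2 fold change was 0.52 (SE 0.16, limma adjusted p = 0.119, and 0.0345 with the replicate block). TAGLN3, the neuronal transgelin, had between 0 and 7 fragments per library.

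The 3 calponins differed from each other. CNN1, the smooth muscle calponin, was near zero, at 0.385, 0.342 and 0.161 FPKM in shNC and 0.479, 0.333 and 0.346 FPKM in shACAT2 libraries, from 8 to 21 fragments. CNN2 had overlapping groups and a log2 fold change of 0.20 (limma adjusted p = 0.538). CNN3, the acidic calponin, measured 44.3, 44.4 and 44.1 FPKM in the shNC libraries and 37.2, 33.5 and 32.4 FPKM in the shACAT2 libraries. All shACAT2 values of CNN3 were below the narrow shNC range, with a log2 fold change of −0.36 (SE 0.10, limma adjusted p = 0.0916, and 0.0462 with the replicate block). CALD1, which codes for caldesmon, an inhibitor of actomyosin, ran from 7.28 to 11.2 FPKM in shNC and from 13.5 to 20.1 FPKM in shACAT2 libraries. In both groups replicate 1 was the lowest, and the log2 fold change was 0.74 (SE 0.20, limma adjusted p = 0.0826, and 0.0176 with the replicate block).

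None of the 6 crosslinkers passed the test. FLNA, the ubiquitous filamin, measured 170, 149 and 153 FPKM in shNC and 198, 192 and 164 FPKM in shACAT2 libraries, with overlapping groups and a log2 fold change of 0.23 (SE 0.12, limma adjusted p = 0.308). FLNC, the filamin of muscle, measured 7.26, 6.95 and 6.29 FPKM in shNC and 8.05, 8.19 and 7.04 FPKM in shACAT2 libraries. These groups also overlapped, with a log2 fold change of 0.16 (SE 0.10, limma adjusted p = 0.374). The α-actinins ACTN1 and ACTN4, the bundling protein gene FSCN1 and LIMA1 had log2 fold changes between 0.03 and 0.36, and ACTN1 was the sole crosslinker whose groups did not overlap.

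Among the 8 adhesion and LIM proteins VCL and FHL1 rose. VCL, which codes for vinculin, a link between integrin adhesions and actin (chromosome 10, 73995193 to 74121363, GRCh38), measured 38.6, 36.7 and 38.0 FPKM in shNC and 52.9, 54.6 and 61.0 FPKM in shACAT2 libraries. In this gene shACAT2-3, and not shACAT2-1, was the highest library. The mean rose 1.49-fold, from 37.8 ± 0.990 to 56.2 ± 4.27 FPKM (SD, n = 3), with a log2 fold change of 0.56 (SE 0.10, limma adjusted p = 0.0308). VCL shares 1109 exon bases with AP3M1 on the opposite strand, which had 14.8 FPKM in shNC cells and 12.1 FPKM in shACAT2 cells, the opposite direction. FHL1, a LIM protein abundant in muscle, measured 1.01, 0.957 and 0.899 FPKM in shNC and 2.05, 1.64 and 2.07 FPKM in shACAT2 libraries, from 93 to 187 fragments. The groups were apart at this low level, and the mean rose 2.01-fold, with a log2 fold change of 0.57 (SE 0.12, limma adjusted p = 0.0447). With a pseudocount of 0.1 in place of 1 the log2 fold change was 0.93, and with limma-voom 0.94. FHL1 lost its call without shACAT2-1 or shACAT2-3 as well as in the reduced fits named above.

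The other members of this group spanned log2 fold changes from −0.07 for talin (TLN1) to 0.58 for zyxin (ZYX), a sensor of tension at adhesions. ZYX had a limma adjusted p of 0.0851, and 0.0373 with the replicate block, with shNC values from 13.1 to 14.9 FPKM and shACAT2 values from 17.8 to 26.9 FPKM. FHL3 had a log2 fold change of 0.42 and overlapping groups (limma adjusted p = 0.200, and 0.0463 with the replicate block). FHL2, PDLIM5, PDLIM7 and TLN1 had overlapping groups and limma adjusted p values of at least 0.329.

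Of the 7 regulators of filament dynamics, DSTN and CAPG rose. DSTN, which codes for destrin, a protein that severs and depolymerises filaments, measured 40.1, 36.8 and 37.5 FPKM in shNC and 62.3, 58.1 and 68.0 FPKM in shACAT2 libraries. The groups were well apart and shACAT2-3 was the highest library, with a log2 fold change of 0.70 (SE 0.11, limma adjusted p = 0.0176). The 4 annotated DSTN pseudogenes together had 6.16 FPKM in shNC cells and 6.58 FPKM in shACAT2 cells. CAPG, which caps filament ends, measured 4.74, 3.76 and 3.60 FPKM in shNC and 11.7, 9.14 and 6.54 FPKM in shACAT2 libraries. Like TAGLN and MYL9 it was highest in shACAT2-1 and lowest in shACAT2-3, and its mean rose 2.26-fold with a log2 fold change of 0.98 (SE 0.20, limma adjusted p = 0.0388).

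CTTN, which codes for cortactin, a protein of invadopodia and branched actin networks, measured 22.4, 20.8 and 20.5 FPKM in shNC and 30.5, 26.2 and 22.4 FPKM in shACAT2 libraries. The lowest shACAT2 value and the highest shNC value nearly coincided, and the log2 fold change was 0.29 (SE 0.13, limma adjusted p = 0.235). CFL1, the relative of destrin that codes for cofilin, had overlapping groups and a log2 fold change of 0.26 (limma adjusted p = 0.515). Profilin (PFN1) had a log2 fold change of 0.39 with overlapping groups, and its 10 pseudogenes summed to 11.6 FPKM in shNC cells and 12.3 FPKM in shACAT2 cells beside 145 and 195 FPKM for PFN1 itself. The formins DIAPH1 and DIAPH3 were at −0.11 and 0.02, and DIAPH1 had all its shACAT2 values below its shNC values.

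SRF itself measured 20.3, 17.4 and 17.7 FPKM in shNC and 25.0, 21.3 and 16.4 FPKM in shACAT2 libraries. The groups overlapped, with a log2 fold change of 0.15 (SE 0.16, limma adjusted p = 0.617). None of the 5 tested cofactors of SRF passed the test, as MRTFA, MRTFB, ELK1, ELK3 and ELK4 had log2 fold changes of 0.04, −0.33, −0.05, −0.21 and −0.15 and limma adjusted p values of at least 0.324. The sign for MRTFA turned with other scalings and that for ELK1 and ELK4 with 1 library left out. MYOCD, the cofactor of the cardiac and smooth muscle lineages, had no fragment outside shACAT2-3, where it had 0.0526 FPKM.

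The CArG box was sought by a script in RefSeq promoters of GRCh38.p14, from 250 bases before to 50 bases after the start, where its palindromic form covers both strands. Only the strict form of 10 bases was counted, with CC, then A or T throughout, then GG. At least 1 box was found in 1.29% of 35116 promoters and for 1.60% of 27305 genes. Of the members, 39 had a promoter in the table, and 10 of these had a box in 12 of their 79 promoters. The windows below are shown for the members past the test that have one, TPM4 and FHL1, and for the actins and SRF, with the box in capitals, on the strand of the gene.
TPM4, chr19:16067355-16067384, plus strand: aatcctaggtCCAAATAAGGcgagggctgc
FHL1, chrX:136196911-136196940, plus strand: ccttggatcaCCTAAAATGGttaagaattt
ACTG1, chr17:81512874-81512903, minus strand: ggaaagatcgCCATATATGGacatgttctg
ACTG2, chr2:73892888-73892917, plus strand: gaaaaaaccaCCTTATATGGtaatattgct
SRF, chr6:43171229-43171258, plus strand: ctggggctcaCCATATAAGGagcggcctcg
SRF, chr6:43171249-43171278, plus strand: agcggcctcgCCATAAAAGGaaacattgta
The box lay 173 bases before the start of the promoter entry for TPM4, 126 for FHL1, 94 for ACTG1, 110 for ACTG2 and 30 and 10 for SRF. A second box of ACTG2 lay 73 bases before the same start. The start of an entry need not be the first start of the gene. The windows of TPM4, FHL1 and ACTG2 lie downstream of the annotated gene starts at 16067021, 136146702 and 73892314. That of ACTG1, on the minus strand, lies downstream of the gene start at 81523847.

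Members with and without a box were found on both sides of the test. Of the 9 members past the test with a promoter in the table, 2 had a box, and of the other 30 members with a promoter 8 had one, namely ACTG1, ACTG2, ACTN1, CNN2, FHL2, FLNA, MYLK and SRF. ACTB, TAGLN, MYL9, FSCN1 and CTTN were not in the table. ACTA2 was among the members searched and had no strict match. A match is a description of letters in this window. Its absence says nothing about sites elsewhere or about boxes that depart from the strict form.

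Smooth-muscle-type genes were then set against their housekeeping paralogues in 8 pairs, as the difference of log2(FPKM + 1) within each library. Of the smooth-muscle-type genes 4 of 6 tested had risen, with a median log2 fold change of 1.12. Of the housekeeping genes 2 of 8 had, with a median of 0.47, beside 3.3% of all genes tested. All shACAT2 values lay above all shNC values for 4 of the tested smooth-muscle-type genes and for 6 of the housekeeping genes. With the replicate block ACTB, ACTG1, TPM3 and TAGLN2 were called higher too and CNN3 lower. No further smooth-muscle-type gene was called in that fit, where 7.67% of all genes rose and 4.81% fell. The 2 smooth-muscle-type genes left out of the first median, ACTG2 and CNN1, lay below the filter and had overlapping groups. No housekeeping gene was left out, so the medians cover unlike sets. The test of each pair was a two-sided exact permutation test over the 6 libraries, whose smallest possible p is 0.1, so that no pair could pass 0.05. The 3 shACAT2 values were entirely apart from the 3 shNC values in 5 pairs, each with an exact p of 0.1 and a Benjamini-Hochberg adjusted p of 0.16 over the 8 pairs.

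In 3 of these 5 pairs the smooth-muscle-type gene was expressed and moved up against its paralogue. ACTA2 gained 1.42 (SE 0.06) on ACTB, and went from 0.387% to 1.23% of the ACTB level in mean FPKM. TAGLN gained 0.93 (SE 0.08) on TAGLN2, from 1.67% to 4.55% of its level. TPM1 gained 0.56 (SE 0.05) on TPM4, from 10.2% to 16.6% of its level. The muscle and nonmuscle isoforms of TPM1 are counted together in this value. In all 3 pairs the housekeeping paralogue remained the more abundant in every library. Over the alternatives tried the gain ran from 1.37 to 1.65 for ACTA2, from 0.89 to 1.36 for TAGLN and from 0.52 to 0.68 for TPM1.

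The other 2 separated pairs had a smooth-muscle-type gene below the filter. CNN1 against CNN3 differed by 0.46 (SE 0.08), where CNN1 had at most 0.479 FPKM and CNN3 was lower in shACAT2 libraries. ACTG2 against ACTG1 differed by −0.41 (SE 0.13), where ACTG2 had at most 0.192 FPKM and ACTG1 was higher in shACAT2 libraries. Both values depend on the pseudocount, since the smooth-muscle-type gene lay below 1 FPKM. With a pseudocount of 0.1 the differences were 0.70 for CNN1 against CNN3 (exact permutation p = 0.1) and −0.31 for ACTG2 against ACTG1 (exact permutation p = 0.5), where the groups of the second pair overlapped.

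In 3 pairs the groups overlapped. MYL9 against MYL12B differed by 0.38 (SE 0.26, exact permutation p = 0.4), and MYL9 was lower in shACAT2-3 than in the other shACAT2 libraries. Without shACAT2-3 the difference was 0.63 with the groups apart (exact permutation p = 0.1), and without shACAT2-1 it was 0.21 (exact permutation p = 0.7). TPM2 against TPM3 differed by −0.19 (SE 0.34, exact permutation p = 1.0), and without shACAT2-3 by 0.15. FLNC against FLNA differed by −0.07 (SE 0.06, exact permutation p = 0.5).

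**Figure D3:**
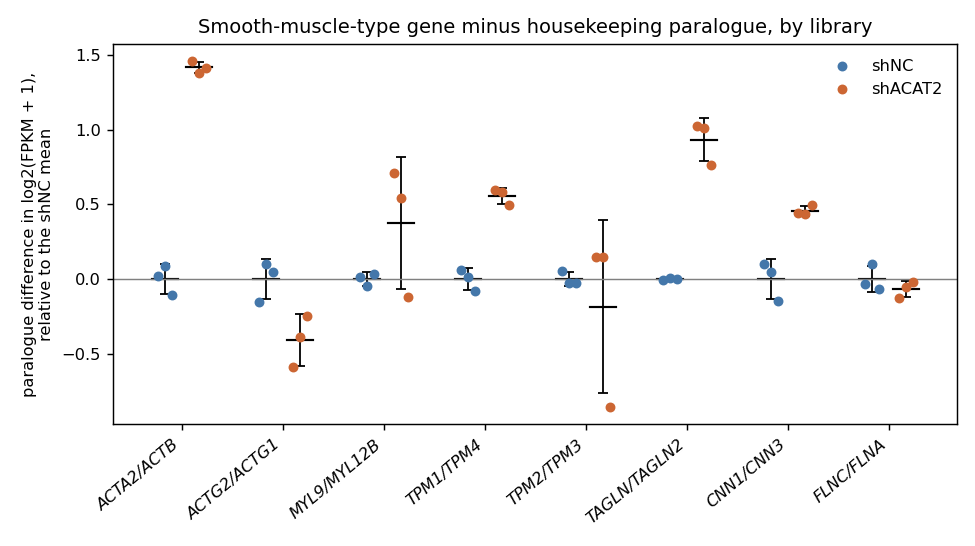
Log2(FPKM + 1) of the smooth-muscle-type gene minus that of its housekeeping paralogue in each library (vertical axis, set to 0 at the shNC mean), with group means and SD (n = 3). The shACAT2 points of ACTA2/ACTB lie around 1.42, those of TAGLN/TAGLN2 around 0.93, and shACAT2-3 is the lone low point in MYL9/MYL12B and TPM2/TPM3.

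The 3 shACAT2 libraries differed among themselves in a way that many members shared. Of the 40 tested members, 30 were highest in shACAT2-1 and 25 lowest in shACAT2-3 within their group, and 23 were both. In the shNC group, 34 members were highest in shNC-1. The shares of all genes tested with these orders were not counted, so the order is not shown to be particular to the members. Fragments on genes were 105%, 96.6% and 93.9% of the depth implied by the deposited scaling in shACAT2 libraries 1 to 3. In shNC libraries 1 to 3 they were 97.9%, 93.0% and 93.2%. The part of this scaling in the order was not tested. The median difference of the members from the shNC mean was 0.60, 0.31 and 0.16 on the log2(FPKM + 1) scale in shACAT2-1, shACAT2-2 and shACAT2-3, against 0.07, 0.02 and −0.03 for all genes tested. The median of the members stood above the shNC mean in each shACAT2 library, and least in shACAT2-3, the library with the most genes detected. ACTA2, VCL, DSTN and TPM1 were clearly raised in shACAT2-3 too, whereas TPM2, CNN2, CFL1, MYL6, FSCN1, PDLIM7 and SRF, all with a positive log2 fold change, were below every shNC library there. Whether the library's other features had a part in this was not tested. Without shACAT2-3 the median log2 fold change of the members was 0.48 and 10 members passed the test, all of them among the 11. In that fit 3.32% of all genes were called higher.

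**Figure D4:**
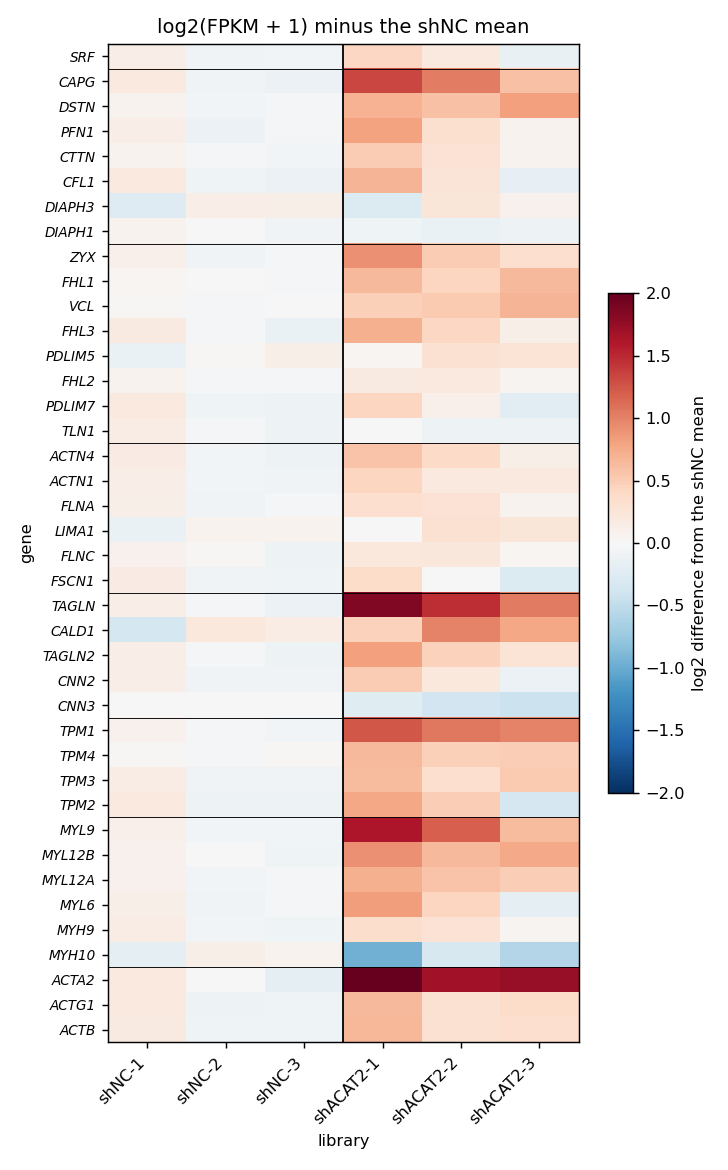
Log2(FPKM + 1) minus the shNC mean (colour, from −2 in blue to 2 in red) for the 40 tested members (rows, grouped by role) in the 6 libraries (columns). The red of the shACAT2 columns is strongest in shACAT2-1 and weakest in shACAT2-3 for most rows, while ACTA2, DSTN and VCL stay red in all 3 shACAT2 columns and CNN3 and MYH10 are blue in all 3.

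Other genes of the pathway were counted in 5 lists written by function, of nucleators, other filament dynamics, other stress fibre and adhesion proteins, other myosins, and the SRF cofactors. Of 122 genes listed, 98 were tested, 6 rose (6.12%) and 2 fell (2.04%) at a limma adjusted p below 0.05, beside the 3.3% and 1.81% of all genes given above. With the replicate block 13 rose and 4 fell, beside 7.67% and 4.81% of all genes. The share of genes that rose was 6.12% in these lists and 27.5% among the members, and the difference between these shares was not tested.

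EZR, which codes for ezrin, the linker of filaments to the plasma membrane, had the largest change of these genes, at 16.6, 12.7 and 12.9 FPKM in shNC and 49.5, 41.1 and 38.9 FPKM in shACAT2 libraries (log2 fold change 1.56, SE 0.15, limma adjusted p = 0.00483). SPTAN1, TGFB1I1 and SPTBN1 of the same list rose with log2 fold changes of 0.59, 0.90 and 0.58 (limma adjusted p = 0.0254, 0.0258 and 0.0348). SPTAN1 and SPTBN1 code for spectrins and TGFB1I1 for the adhesion protein Hic-5. In contrast FERMT1, which codes for the integrin activator kindlin-1, fell by 0.50 on the log2 scale (limma adjusted p = 0.0343).

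TMSB4X, which codes for thymosin β4, the main sequestering protein of actin monomers, rose with a log2 fold change of 1.13 (limma adjusted p = 0.00793). ARPC5, a subunit of the ARP2/3 complex, was the sole one of 27 nucleator genes to rise, with a log2 fold change of 0.50 (limma adjusted p = 0.0311). SVIL, which codes for supervillin, a membrane protein that binds actin and myosin II, fell by 0.51 on the log2 scale (limma adjusted p = 0.0377). None of the 13 tested genes for other myosins passed. Of the 8 genes called in these lists, EZR kept its call in every alternative tried, and TMSB4X lost it once shNC-3 was removed or averaged with shNC-2. SPTAN1, TGFB1I1, SPTBN1, FERMT1, ARPC5 and SVIL each lost the call after removal of any shNC library or of shACAT2-2, with that average and without the filter on low values. SVIL also lost it under upper-quartile scaling (limma adjusted p = 0.0506), and SPTBN1 under upper-quartile and library-size scaling and without shACAT2-3 (limma adjusted p = 0.0711, 0.0603 and 0.0598).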

How the data were processed

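HGC-27 RNA was measured in 3 shNC and 3 shACAT2 libraries. The authors deposited FPKM values per gene. The submitters' processing notes name HISAT2 2.0.5, featureCounts 1.5.0-p3, DESeq2 1.20.0 and hg38, and the strand setting is not given in the sources used here. The lengths and coordinates of all 58735 genes, and 58723 of the symbols, match GENCODE release 29. Values times gene length were whole multiples of a step per library, within 0.05 of a fragment for 100% of values, which gave the fragments. The step corresponds to a denominator of which the fragments on genes were 93.0% to 105%, so scaling to their total was an alternative.

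The test was limma 3.58.1 with a trend, in R 4.3.3, on log2(FPKM + 1) of genes whose mean reached 1 FPKM in shNC or shACAT2 cells, with Benjamini-Hochberg adjustment over 13832 genes and a threshold of 0.05. Fold changes on this scale understate those of genes with low values. Python 3.11.15, numpy 2.4.6, pandas 2.3.3, scipy 1.17.1 and biopython 1.88 served the other steps. The fit was run on simulated independent libraries with absolute log2 changes of at least 1, which say nothing about smaller changes. Count tests were not run, as the values are FPKM, and limma-voom on the recovered fragments was an alternative.

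Groups and replicate numbers came from the sample titles. The deviations of libraries with equal numbers from their group means correlated at 0.445, 0.126 and 0.171, which exceeds 0.1 for each number. The tests given first are unpaired, and on this ground the result of the fit with a replicate block is given beside them where a call changes. The correlation of shNC-2 with shACAT2-3 was 0.198, higher than that of either with its own number. That of shNC-3 with shACAT2-2 was 0.141, above the 0.126 of number 2. The deviations cancel within a group, so the correlations depend on each other and do not show that libraries of equal number were paired. The design text calls the replicates biological, without naming separate cultures, so p-values measure the spread between these libraries, which may be technical. The chi-square per gene of shNC-2 and shNC-3 exceeded sampling noise. They stayed 2 samples in the test, and their average was an alternative.

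The members and lists were chosen with earlier results of these data known. Values in every library are given for each member past the test, for both genes of each paralogue pair and for ACTB, CTTN, VCL and ACTA2, and other members by range and counts. Further members with values were picked after these had been seen. From the other lists, genes past the test were named, at most 3 per list and direction by p, with the SRF cofactors and the cell type markers. SPTBN1 was named beyond that rule. A further list of pathway genes is not reported here.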

Additional observations from a re-analysis of the deposited data

How the results depend on the processing

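The replicate block raised the members called higher from 11 to 18 and those called lower from 0 to 2, and the pathway genes from 6 to 13 higher and from 2 to 4 lower. It kept every call of a member. Without a filter on low values, 4 members and 2 pathway genes were called higher and 0 pathway genes lower. In that fit 0.362% of 41161 genes were called higher. With shNC-2 and shNC-3 averaged, 2 members and 1 pathway gene were called higher and 0 pathway genes lower. With 1 library left out in turn, the members called ranged from 2 to 11 higher and 0 to 1 lower. Over all genes the share called higher ran from 0.353% without shNC-3 to 3.76% without shACAT2-1. The pathway genes ran from 1 to 8 higher and 0 to 2 lower, and the members past the study's thresholds from 3 to 5. The median log2 fold change of the members ran from 0.26 to 0.48. One member (CNN3) was called lower under upper-quartile scaling, library-size scaling and limma-voom, and 4 and 6 pathway genes were lower under the latter pair. These scalings gave 10, 12 and 14 members called higher, where 3.15%, 3.51% and 4.22% of all genes were called higher. The median log2 fold change of all genes was −0.03, −0.03 and −0.04. Under upper-quartile scaling VCL, FHL1, SVIL and SPTBN1 lost their call. The log2 fold change of MRTFA turned to −0.013 under upper-quartile scaling, −0.0076 under library-size scaling, −0.0089 with limma-voom and −0.0014 with the average, and ran from −0.019 to 0.12 with 1 library left out. Likewise ELK1 ran from −0.15 to 0.052, ELK4 from −0.27 to 0.0056 and the TPM2/TPM3 difference from −0.36 to 0.15. A pseudocount of 0.1 and a minimum of 10 fragments in every library left the same 11 members called. In these fits 3.2% and 4.21% of all genes were called higher. The pseudocount of 0.1 also moved the CNN1/CNN3 difference from 0.46 to 0.70 and FHL1 from 0.57 to 0.93. It moved TAGLN from 1.45 to 1.88 and ACTA2 from 1.85 to 2.08. No cause of these shifts was tested. Of the values for single genes under an alternative, 393 kept their direction and side of the threshold, 98 lost it, 19 gained it and 8 changed sign. Depth was from 2 to 21 fragments per library for ACTG2 and CNN1, which limits what can be said of them.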
